A study of Sus scrofa with 64 samples.

Results

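The myosins, actins, troponins and their companions on the sarcomere were followed across 16 tissues of the pig, together with the smooth-muscle and non-muscle paralogues of the same families. Every probe of the porcine Affymetrix array was a member if its gene symbol on the platform fell under a fixed rule. The rule took myosin heavy chains, numbered myosin light chains, myosin binding proteins, myozenins and troponins. It also took tropomyosins, muscle or cytoskeletal actins and alpha-actinins. MYLPF, a myosin light chain without a number in its symbol, was not a member and stands in partner and marker lists below. In all the rule took 55 of the 24123 probe sets, standing for 31 genes, and it used symbols and no measured value. Of these, 4 were the manufacturer's ACTG1 control probes and were left out of the tests, so that 51 members stood among 23935 tested probes. A further 3 probes carried several symbols and were not named.

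Skeletal and cardiac muscle contract when myosin heads pull on actin filaments that are arranged in sarcomeres, with the troponin complex and tropomyosin switching the filament on in the presence of calcium. Fast fibres, slow fibres and heart each use their own myosin, light chain and troponin genes. Smooth muscle has no troponin and is switched on through its myosin light chain. Non-muscle cells use further paralogues of myosin, actin, tropomyosin and alpha-actinin for adhesion, division and movement.

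Each tissue was taken from the same 4 pigs and hybridised to its own array, which gave 64 arrays with 4 per tissue. The animals were a Large White male and a Large White female, both aged 87 days, and an Iberian female and an Iberian male, both aged 89 days. Values of single arrays are given below in that order. The muscles were diaphragm, taken at its crura, and Biceps femoris, listed by the study as oxidative and glycolytic in metabolism. The other 14 tissues were stomach and ileum, both sampled as epithelium, back fat, abdominal fat, blood, liver, thyroid gland, adrenal cortex, adrenal medulla, pineal gland, both lobes of the hypophysis (adenohypophysis and neurohypophysis), olfactory bulb and hypothalamus. Each breed and sex combination was a single pig, and no heart was among the tissues.

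A level below is the deposited log2 value of a probe, and a difference of 1 is a 2-fold change. Levels were compared between tissues for 1 probe at a time and never between probes. A probe passed when its adjusted p in limma, over all 23935 probes, was under 0.05. Since the tissues were not separated into cells, fewer cells of a type and less RNA per cell cannot be told apart. The skeletal muscle marker list (9 probes of 7 genes outside the members) averaged between 11.30 and 12.06 in the muscle arrays and did not exceed 4.22 in any other array, which fits the muscle labels. Within their tissues, the Biceps femoris array of the Iberian female, the pineal gland array of the Large White male and the stomach array of the Iberian female were the farthest from the rest, and results that rest on them are given with and without them.

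By their known use the members fell into 6 fast skeletal genes, 9 slow skeletal and cardiac genes, 5 genes shared among skeletal fibres (13 probes), the developmental light chain MYL4, 3 smooth-muscle genes (4 probes) and 7 non-muscle genes (18 probes). ACTA1, MYH1, MYH4 and MYH11 were not analysed here.

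**Figure D1:**
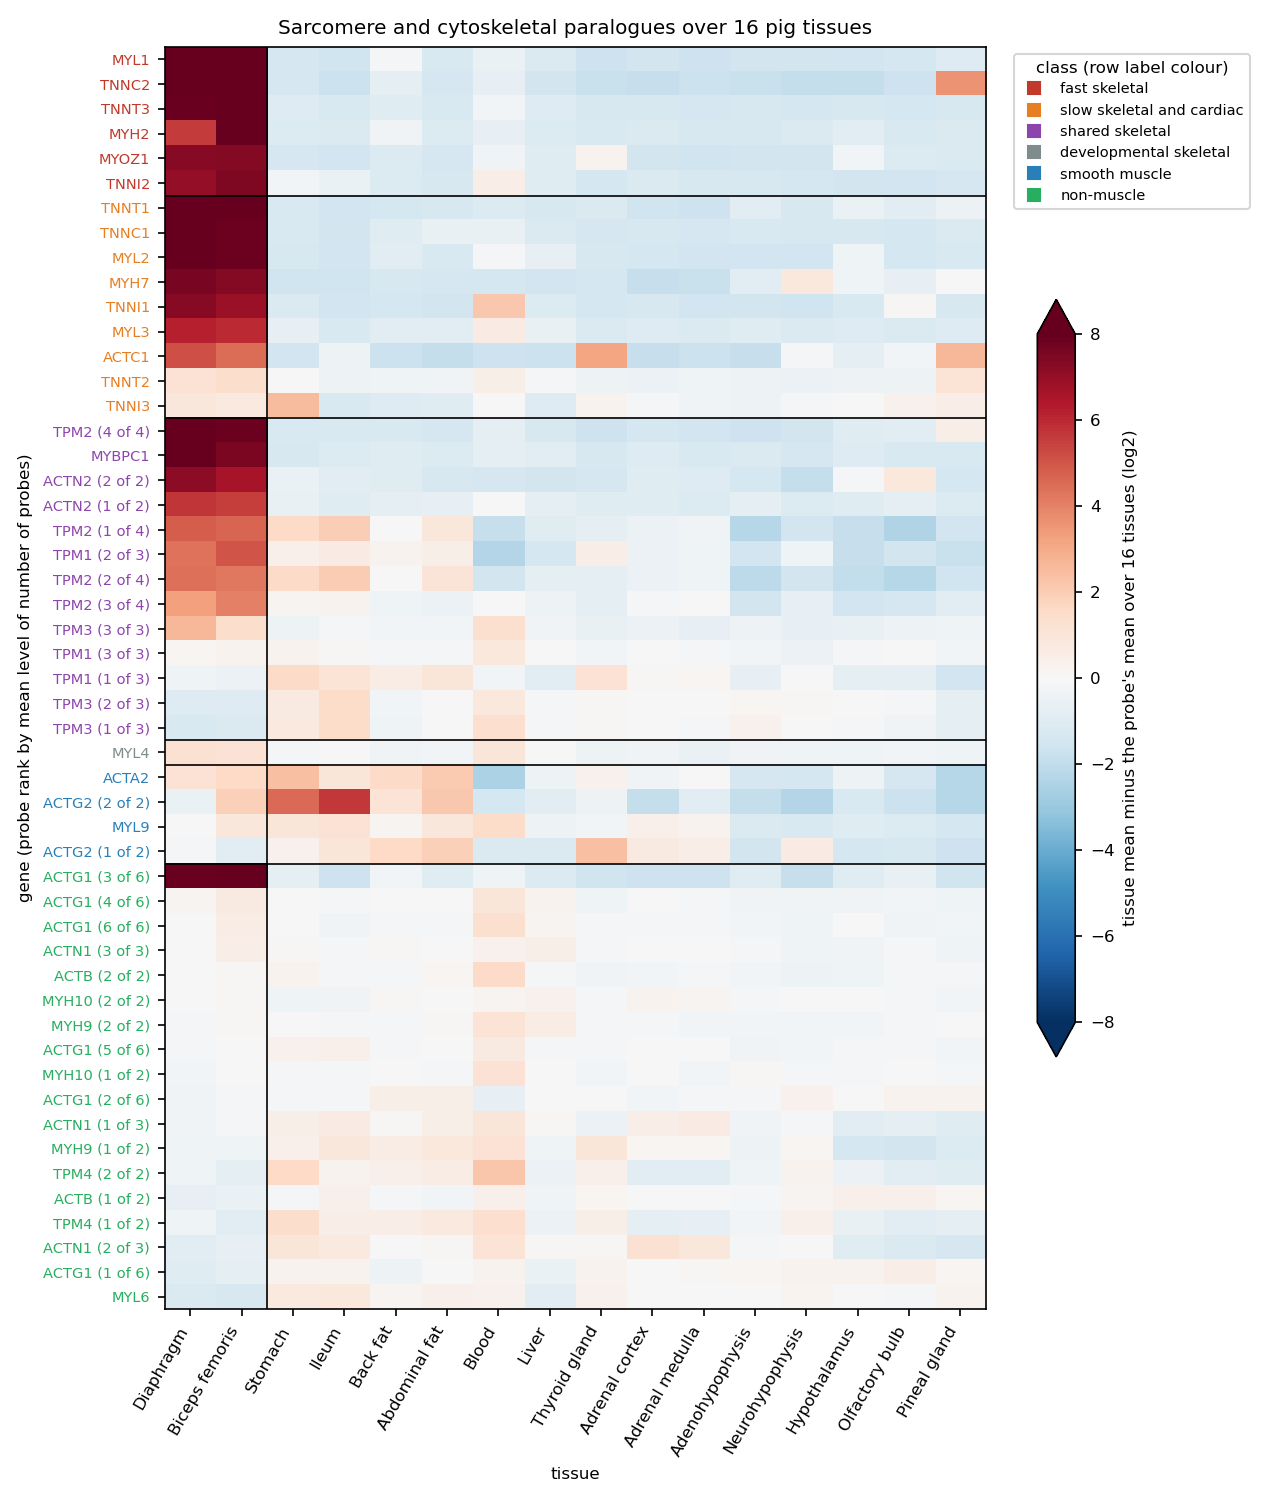
Mean log2 level of each of the 51 tested members in 16 tissues, minus that probe's mean over the tissues; rows are probes grouped by class (row label colour), columns are tissues, the vertical line parts the muscles at left from the other tissues, and colours end at 8 and -8. All 6 fast rows and most slow and cardiac rows were dark red in both muscles only, with isolated off-muscle cells for TNNC2 and ACTC1 in pineal gland, ACTC1 in thyroid gland, TNNI3 in stomach and TNNI1 in blood.

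Diaphragm and Biceps femoris were first set against the mean of the other 14 tissues. In the muscles 32 of 51 members were higher and 13 lower, where 35.4% of all probes tested were higher and 34.9% lower. The 6 fast skeletal genes were all higher, with a median difference of 8.85 on the log2 scale, and so were the 9 slow and cardiac genes, with a median of 8.12. Across all probes the median difference was 0.02. The non-muscle class went both ways, with 4 probes higher, 9 lower and 5 that did not pass, differences between -1.38 and 9.13 and a median of -0.15.

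Among the fast genes, MYL1, the essential light chain of fast myosin, lay between 13.09 and 13.40 in the 8 muscle arrays and between 2.59 and 6.17 in the 56 others. The muscle arrays stood clear above every other array. The difference was 10.08 ± 0.16 (SE; limma, adjusted p = 1.4e-46). TNNC2 and TNNT3, the calcium-binding and tropomyosin-binding subunits of fast troponin, differed by 9.31 ± 0.37 and 9.30 ± 0.09. MYH2, the heavy chain of fast oxidative (type IIA) fibres, spanned a wide range of 8.04 to 13.43 in the muscles, against 2.49 to 5.26 in the other tissues, with a difference of 8.41 ± 0.19. MYOZ1, a myozenin that anchors calcineurin at the Z-disc, and TNNI2, the inhibitory subunit of fast troponin, completed the class at 8.38 and 8.27. In all 6 fast genes every muscle array was above every other array.

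Most slow and cardiac genes differed by similar amounts. MYH7, the myosin heavy chain shared by slow fibres and the heart, lay between 13.35 and 13.77 in the muscles and between 3.90 and 7.33 elsewhere (8.53 ± 0.10, limma adjusted p = 1.5e-52). The slow troponin subunits TNNT1 and TNNC1 differed by 9.30 ± 0.14 and 9.29 ± 0.11, and the regulatory light chain MYL2 by 9.15 ± 0.11. TNNI1, the slow inhibitory subunit, and MYL3, the slow essential light chain, followed with 8.12 ± 0.08 and 6.96 ± 0.08. These 6 genes separated the muscles from all other arrays with no overlap. The 3 genes best known from the heart behaved otherwise. ACTC1, cardiac actin, differed by 5.49 ± 0.27 but its ranges met, at 8.90 to 10.91 in the muscles and 2.66 to 9.73 in the other tissues. The cardiac troponins TNNT2 (1.47 ± 0.13) and TNNI3 (0.95 ± 0.27, limma adjusted p = 0.0015) differed least in the class.

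Tropomyosins depended on the probe. All 4 probes of TPM2, beta-tropomyosin, were higher in the muscles, the brightest by 5.45 ± 0.22. The dimmer probes of TPM1 were higher by 5.35 and 0.27, whereas its brightest probe was lower by 0.48 (-0.48 ± 0.12). TPM3, which gives rise to a slow-muscle and to cytoskeletal tropomyosins, had 2 bright probes that fell by 1.34 and 1.17 and a dim one that was higher by 2.33 ± 0.10. Over the 16 tissue means the brightest and the dim TPM3 probe had a correlation of -0.31, and the first and second TPM1 probes one of 0.24, as a description with the arrays shared. MYBPC1, a myosin binding protein of the thick filament, was higher by 8.88 ± 0.07, and both probes of ACTN2, the alpha-actinin of the Z-disc, by 6.45 and 7.87. MYL4, a light chain of embryonic muscle and atrium, was higher by 1.38 ± 0.07.

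The smooth-muscle genes divided. ACTA2, smooth-muscle alpha-actin, lay between 10.10 and 11.32 in the muscles and between 6.03 and 12.26 elsewhere, with a difference of 1.57 ± 0.21 (limma adjusted p = 3.6e-09). MYL9, the regulatory light chain of smooth-muscle and non-muscle myosin, was higher by 0.56 ± 0.15. The brighter probe of ACTG2, the gamma-actin of visceral smooth muscle, was lower (-0.57 ± 0.17, limma adjusted p = 0.0029). The pericyte markers were higher in 6 of 6 probes in the muscles, the endothelial markers in 12 of 12 and the smooth muscle markers in 7 of 8, and their part in the smooth-muscle members was not tested. The call of ACTG2 rested on 1 array, for without the Biceps femoris array of the Iberian female the difference was -0.29 (adjusted p = 0.08). The second ACTG2 probe had a difference of 0.81 ± 0.40 and did not pass (limma adjusted p = 0.07).

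Most non-muscle members that passed were lower in the muscles. MYL6, the essential light chain of non-muscle and smooth-muscle myosin, lay between 9.70 and 10.29 in the muscles and between 10.12 and 12.35 in the other tissues, and fell by 1.38 (SE 0.07, limma adjusted p = 4.6e-24). The brightest probe of ACTG1, cytoplasmic gamma-actin, fell by 0.99, with levels of 11.18 to 11.81 in the muscles against 11.57 to 13.01 elsewhere. ACTB, cytoplasmic beta-actin, fell by 0.70 in its brighter probe, with levels of 11.85 to 12.30 against 11.96 to 13.27. In all 3 the ranges overlapped. The second ACTB probe averaged 8.29 in the muscles and 8.21 elsewhere. The 3′ actin control probe, which was not among the tested probes, averaged 11.73 ± 0.20 in the muscles (SD, n = 8) and 12.69 ± 0.30 in the other tissues (SD, n = 56). The distance between its 3′ and 5′ probes, which grows as RNA degrades, was 1.76 to 2.19 in the muscles and 1.77 to 3.45 elsewhere. The same distance of the GAPDH control was -0.05 to 0.18 in the muscles and 0.47 to 2.24 elsewhere, with no overlap. The part of RNA quality in these differences was not tested.

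Of the 4 non-muscle probes that were higher in the muscles, 3 differed by 0.51 or less (2 of ACTG1 and 1 of ACTN1) and 1 ACTG1 probe by far more. It was the third by mean level and the only member with the suffix for probes shared between genes. It lay between 13.77 and 14.14 in the muscles and between 3.76 and 7.16 elsewhere, a difference of 9.13 ± 0.18. Over the 16 tissue means its correlation with the brightest ACTG1 probe was -0.79. It thus had the tissue pattern of the skeletal members, and which actin it detects was not tested. TPM4, a cytoskeletal tropomyosin, fell by 0.71 and 0.60 in its 2 probes. ACTN1, a non-muscle alpha-actinin, gave a fall of 0.89 in its second probe, and MYH9, the heavy chain of non-muscle myosin IIA, a fall of 0.39.

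Counted without a model, 21 members (41.2%) had every muscle array above every other array, against 2.01% of all probes, and 0 members had every muscle array below, against 0.455% of all probes. These 21 were the 6 fast genes, 6 slow genes, 8 shared probes and the odd ACTG1 probe. The partner proteins of the sarcomere moved likewise, with 30 of 32 probes higher and 1 lower at a median of 5.43. They were led by MYLPF (9.54), the fast regulatory light chain, MYOT (9.08), a Z-disc protein, and TTN (8.95), the giant spring of the sarcomere. Partners of the actin cytoskeleton had 9 of 40 probes higher and 20 lower, at a median of -0.24. EZR, which ties actin to the membrane (-1.97), ACTR2, a subunit of the actin-branching complex (-1.64), and CAP1, an actin-recycling protein (-1.55), were lowest.

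**Figure D2:**
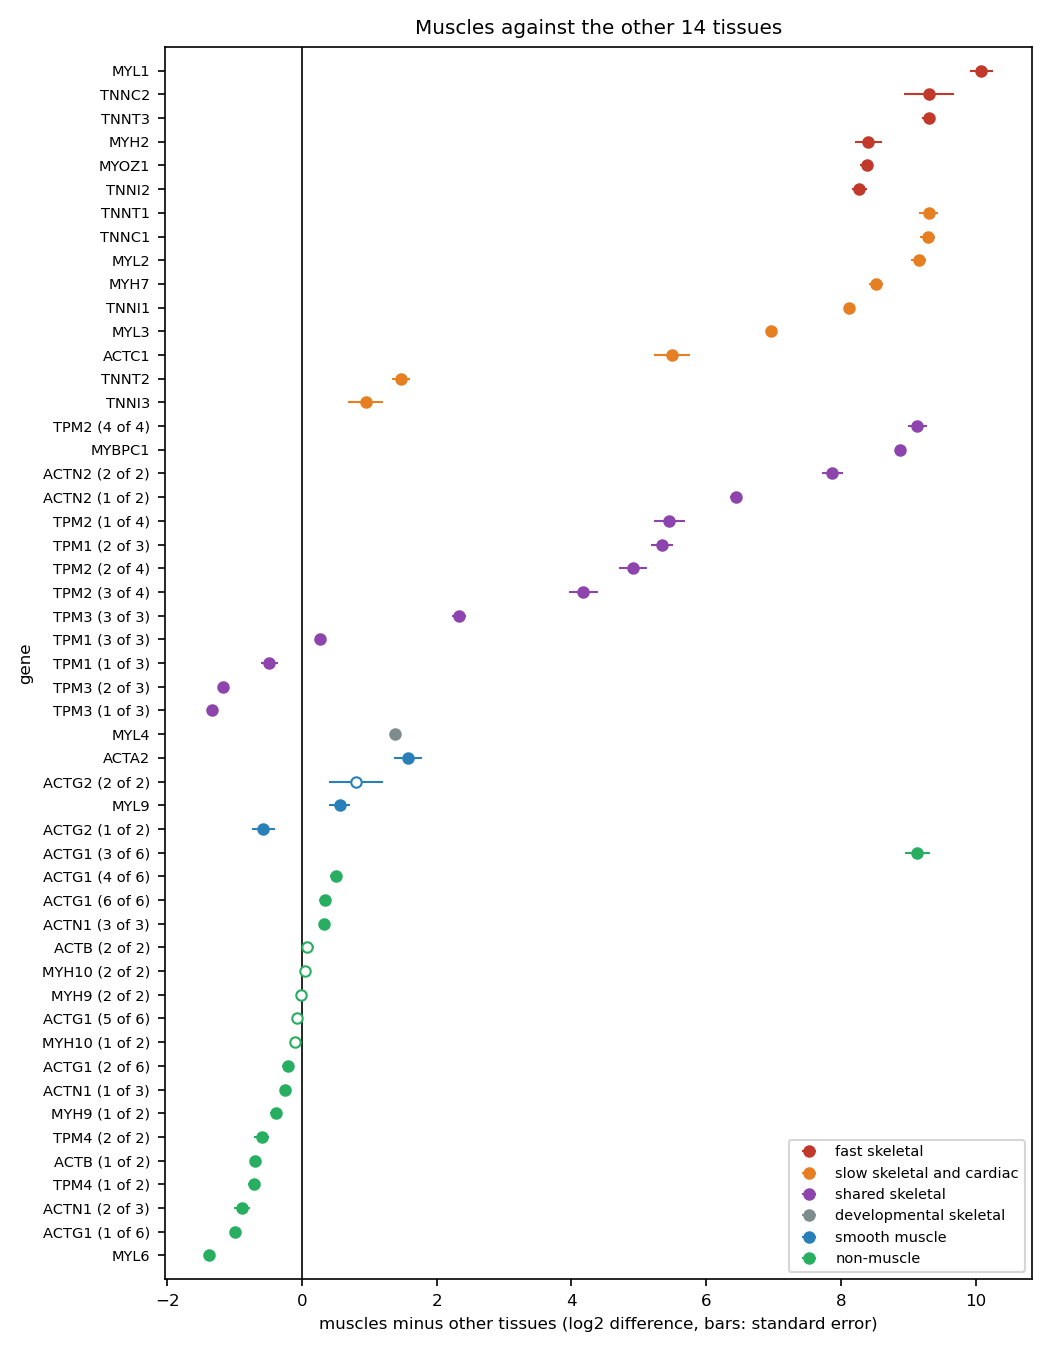
Difference in log2 level between the muscles and the mean of the other 14 tissues for the 51 members; points are limma estimates, bars standard errors, filled points passed and open points did not, and colours are the classes. The fast genes lay between 8.27 and 10.08, and the non-muscle members between -1.38 and 0.51 apart from 1 ACTG1 probe at 9.13.

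Diaphragm and Biceps femoris were then compared in the same 4 pigs. MYH2, the type IIA heavy chain, was far lower in diaphragm, while 5 of 9 slow genes had every diaphragm array above every Biceps femoris array by small amounts, as had 6.67% of all probes. In the fit over all arrays 4 members were higher and 7 lower in diaphragm, where 12.1% of all probes were higher and 13.1% lower. The 9 slow and cardiac genes had a median difference of 0.36 and the 6 fast genes one of -0.29, with a median of -0.09 over all probes. The fit limited to the 8 arrays and the fit to the 4 differences within animals each called 0 members, while they called 134 and 38 of all probes. At an unadjusted p under 0.05 these fits held 16 and 18 members. The calls below thus lean on the spread estimated from all tissues.

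MYH2 had levels of 8.04, 10.87, 8.52 and 10.92 in diaphragm, against 13.21, 13.43, 12.67 and 13.28 in Biceps femoris. All diaphragm arrays were below all Biceps femoris arrays, and the Large White male and the Iberian female were lowest in diaphragm. The difference was -3.56 ± 0.36 (limma adjusted p = 2.4e-10), with the spread estimated from all tissues. Within the animals it was -5.17, -2.56, -4.15 and -2.37. With the 4 within-animal differences it had an adjusted p of 0.062.

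Fast troponins moved less. TNNT3 had levels of 12.96, 12.60, 12.12 and 12.41 in diaphragm and 12.41, 13.30, 13.08 and 13.16 in Biceps femoris. The Large White male ran the other way from the remaining pigs and the ranges overlapped (-0.46 ± 0.18, limma adjusted p = 0.048). For TNNI2 the levels were 12.97, 12.25, 12.05 and 12.35 in diaphragm and 12.84, 13.09, 12.56 and 12.81 in Biceps femoris, again with the Large White male reversed. TNNI2 did not pass (-0.42, limma adjusted p = 0.126). The differences of TNNC2 (-0.15), MYOZ1 (-0.06) and MYL1 (0.02) did not pass either.

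Of the slow genes TNNI1, the inhibitory troponin subunit of slow fibres, passed. Its levels were 13.21, 13.29, 13.37 and 13.42 in diaphragm and 13.03, 12.83, 13.03 and 12.82 in Biceps femoris, with no overlap and a difference of 0.40 ± 0.14 (limma adjusted p = 0.035). For TNNC1 the levels were 13.15, 13.35, 13.22 and 13.12 in diaphragm and 12.97, 12.68, 12.43 and 12.73 in Biceps femoris. This slow calcium-binding subunit also showed no overlap, but its difference of 0.51 did not pass (limma adjusted p = 0.0735). MYL2 had 13.57, 13.78, 13.88 and 13.89 in diaphragm and 13.44, 13.25, 13.43 and 13.47 in Biceps femoris (0.38, limma adjusted p = 0.162). MYH7 was at 13.74, 13.74, 13.77 and 13.74 in diaphragm and at 13.53, 13.35, 13.64 and 13.48 in Biceps femoris (0.25, limma adjusted p = 0.365). Both were above in every diaphragm array without passing, and so was TNNT1 (0.36, limma adjusted p = 0.316). The differences of MYL3 (0.25), ACTC1 (0.71), TNNI3 (0.14) and TNNT2 (-0.24) did not pass.

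The strongest shared member was the third probe of TPM3, the gene of the slow-fibre tropomyosin. It had levels of 7.06, 6.59, 7.22 and 6.64 in diaphragm, against 5.997, 5.77, 5.09 and 5.68 in Biceps femoris. The groups did not overlap, and the difference was 1.25 ± 0.19 (limma adjusted p = 1.9e-06). MYBPC1, whose product is known as the slow form of myosin binding protein C, had levels of 12.60, 12.41, 12.54 and 12.50 in diaphragm and 12.28, 11.89, 11.78 and 11.98 in Biceps femoris (0.53 ± 0.13, limma adjusted p = 0.0021). It too was higher in every diaphragm array.

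MYL9 and 1 of the ACTG2 probes, of the smooth-muscle class, were lower in diaphragm. MYL9 stood at 8.01, 7.60, 7.70 and 7.88 in diaphragm and at 8.56, 8.46, 8.96 and 8.77 in Biceps femoris (-0.89 ± 0.29, limma adjusted p = 0.018). The second ACTG2 probe stood at 5.92, 5.16, 4.97 and 6.07 in diaphragm and at 8.66, 6.33, 8.71 and 8.12 in Biceps femoris (-2.42 ± 0.75, limma adjusted p = 0.014). Neither overlapped, while the brighter ACTG2 probe had a difference of 0.82 that did not pass (limma adjusted p = 0.0536). The smooth muscle marker list averaged 6.38 to 6.54 in diaphragm and 6.51 to 7.05 in Biceps femoris, with 1 of 8 probes higher and 3 lower, and CNN1, smooth-muscle calponin, at -1.99. The part of smooth muscle in the sampled pieces was not tested. Of the non-muscle members TPM4 was higher in diaphragm (0.50), and 2 ACTG1 probes (-0.49 and -0.63) and 1 ACTN1 probe (-0.51) were lower.

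In all, 9 members had every diaphragm array above every Biceps femoris array, against 6.67% of all probes, and 5 had every one below, against 8.52%. Of the 9, 5 were slow genes and 4 shared probes, and of the 5, 1 was a fast gene. Genes outside the members that are tied to fibre type ran the same way, though the lists also hold sarcomere genes such as MYLPF. Of 12 fast fibre partner probes 0 were higher and 7 lower in diaphragm, with a median of -0.83 and with ATP2A1, the fast calcium pump, at -1.68, PYGM, muscle glycogen phosphorylase, at -1.64 and PFKM, muscle phosphofructokinase, at -1.01. Of 13 slow fibre partner probes 5 were higher and 1 lower, with a median of 0.53 and with PLN, which restrains the slow calcium pump, at 1.33, CASQ2, the slow and cardiac calsequestrin, at 1.26 and ATP2A2, the slow calcium pump, at 1.24.

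These calls changed with the samples that entered. Leaving out 1 animal or 1 array at a time gave 1 to 6 members higher and 2 to 9 lower, and leaving out both muscles of the Iberian female gave 2 and 2. MYH2 and the third TPM3 probe passed in each of these fits. Without the Biceps femoris array of the Iberian female TPM4 differed by 0.18 (adjusted p = 0.443), MYL9 by -0.80 (adjusted p = 0.0775) and the second ACTG2 probe by -2.22 (adjusted p = 0.0629), so that none of these 3 passed. TPM4 and MYL9 were also lost without the diaphragm array of the Large White female, and the ACTG2 probe without the diaphragm array of the Iberian female. The calls of TNNI1 and TNNT3 were lost with 5 and 6 of the 8 arrays left out singly. MYBPC1 kept its call with each array left out, and lost it without the Iberian female in all tissues (0.45, adjusted p = 0.0599). TNNI2 passed without the diaphragm array of the Large White male (-0.61, adjusted p = 0.0332).

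**Figure D3:**
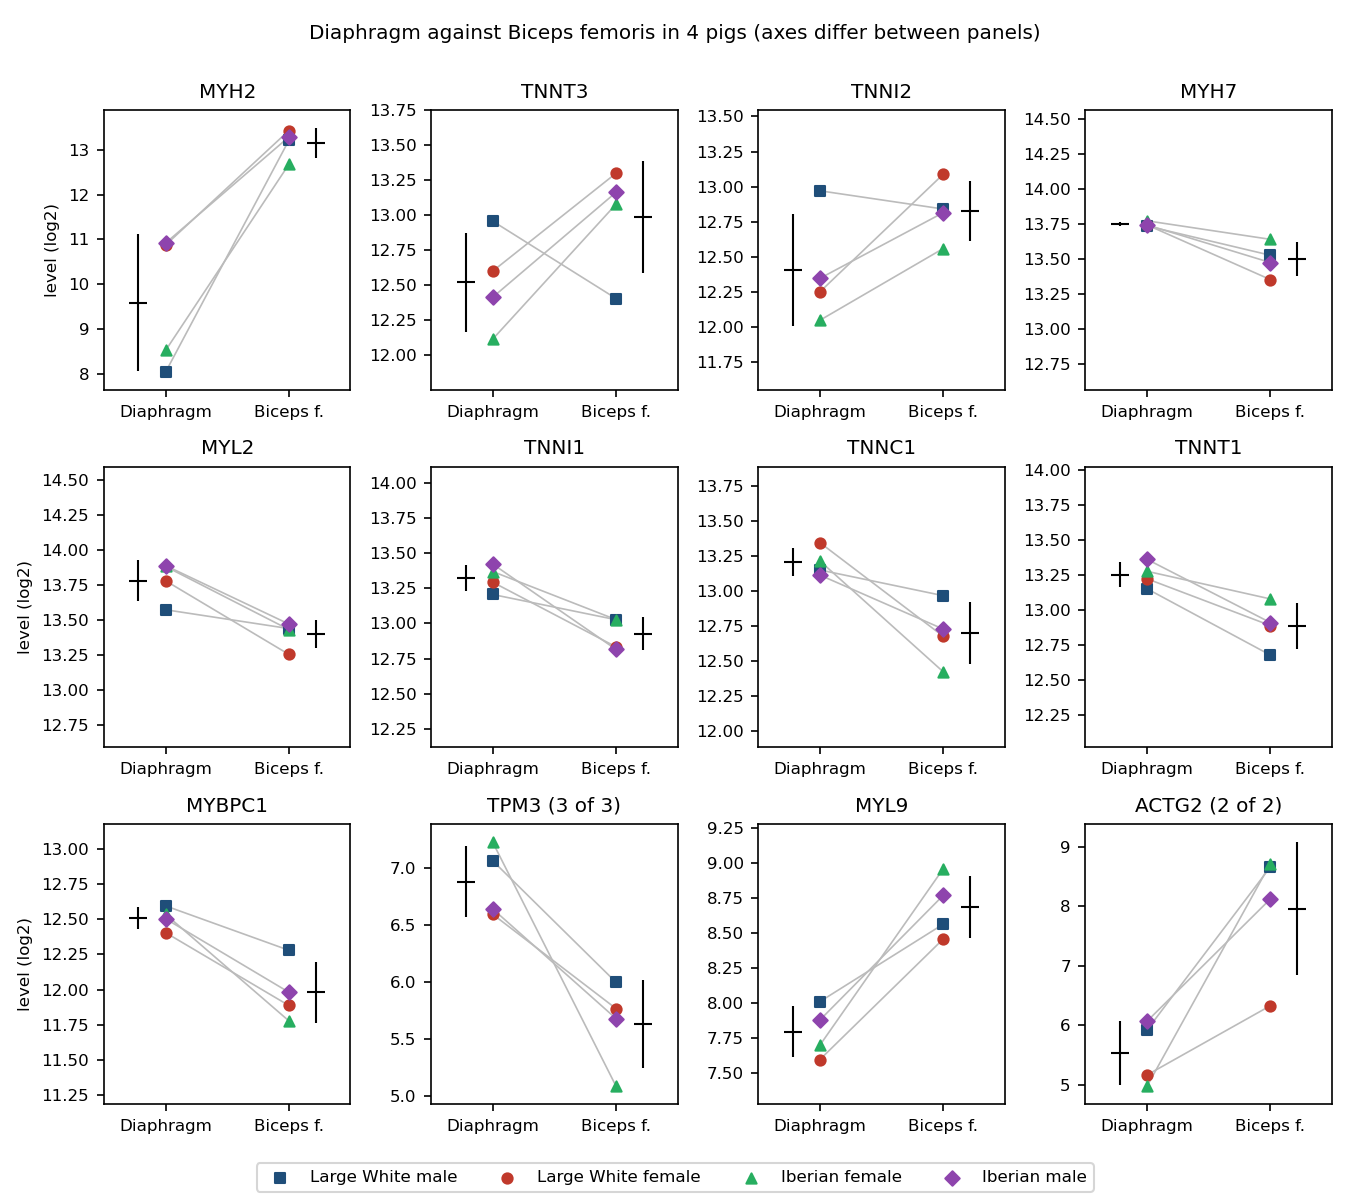
Log2 level of 12 members in diaphragm (left) and Biceps femoris (right), 1 point per pig joined by lines, with mean and SD bars beside each group; axes differ between panels. MYH2 was at 8.04 to 10.92 in diaphragm and at 12.67 to 13.43 in Biceps femoris, while MYH7, TNNI1 and the third TPM3 probe were higher in every diaphragm array.

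Outside the muscles, stomach and ileum were set against the other 12 tissues. All 4 smooth-muscle probes were higher there, and so were 8 probes of TPM1, TPM2 and TPM3, while no sarcomere myosin passed as higher. Of 51 members 22 were higher, where 25.5% of all probes were, and 5 lower, where 27.4% were. The 4 smooth-muscle probes were all higher with a median of 1.77, the shared class had 8 of 13 higher with a median of 0.89, and the non-muscle class 8 of 18 higher and 1 lower with a median of 0.08. The median over all probes was -0.02.

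The second ACTG2 probe had levels of 9.70, 13.11, 10.96 and 8.47 in stomach and of 12.36, 11.29, 11.30 and 11.94 in ileum, against a median of 4.60 in the other 12 tissues (3.27 to 10.01). It was high in all 8 gut arrays, with 1 fat array reaching into their range. The difference was 6.07 ± 0.41 (limma adjusted p = 1.3e-18). The brighter ACTG2 probe differed by 0.69, and by 0.39 with stomach alone (adjusted p = 0.184) against 0.99 with ileum alone.

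ACTA2 had levels of 11.50, 12.26, 12.05 and 11.48 in stomach and differed by 2.19 ± 0.21 over both gut tissues, by 2.91 with stomach alone and by 1.47 with ileum alone. MYL9 had levels of 8.04, 10.47, 8.51 and 7.95 in stomach and differed by 1.34 ± 0.15. The stomach of the Large White female was the highest of the 4 in each of these. The smooth muscle marker list was also highest in that array, at 6.75, 8.18, 7.13 and 6.49 over the 4 pigs, and the brightest TPM2 probe followed at 8.48, 11.59, 9.84 and 8.28. Among the smooth-muscle partners, a list that also holds the 3 ACTN1 probes of the members, 11 of 20 probes were higher and 1 lower. They were led by CNN1 (3.79), KCNMB1, a potassium channel subunit (2.76), and TAGLN, an actin-binding protein of smooth muscle (2.40). Since the samples are given as epithelium, the amount of muscle layer in them was not tested.

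TPM2 was higher by 2.85 ± 0.23 in its brightest probe, TPM1 by 1.48 and TPM3 by 1.12. With stomach alone TPM3 was higher by 0.80, against 1.43 with ileum alone. Of the non-muscle members TPM4 was higher by 1.01 in both probes and MYH9 by 0.69. The brighter TPM4 probe was higher by 1.45 with stomach alone and by 0.57 with ileum alone, the second by 1.64 and 0.38, and MYH9 by 0.45 and 0.93. MYL6 lay between 11.78 and 12.35 in the 8 gut arrays and between 10.12 and 11.76 in the others, with no overlap and a difference of 0.76 ± 0.07 (limma adjusted p = 1.1e-13). The slow genes MYH7 (-0.61), TNNI1 (-0.40) and MYL2 (-0.33) were lower, MYL2 no longer so without the stomach of the Iberian female (-0.25, adjusted p = 0.0629). TNNI1 had a median of 4.64 in the gut arrays and of 4.67 in the rest, among which blood averaged 8.20. The medians of MYH7 were 4.67 and 4.94, and brain and hypophyses averaged 5.94.

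The troponins TNNI2 and TNNI3 were higher. TNNI2, the fast inhibitory subunit, had levels of 4.70, 4.85, 5.37 and 5.83 in stomach and of 4.34, 4.58, 5.04 and 5.41 in ileum, and differed by 0.78 ± 0.11 (limma adjusted p = 3.3e-08). It was higher by 0.95 with stomach alone and by 0.61 with ileum alone. TNNI3 is cardiac troponin I. Its levels in stomach were 10.12, 9.74, 5.20 and 11.26, against 6.84 to 7.59 in the muscles. In 3 of 4 pigs the stomach was thus above every muscle array of the same probe, and the Iberian female was below them. The difference over stomach and ileum was 0.91 ± 0.27 (limma adjusted p = 0.0033). It was 2.80 with stomach alone, -0.98 with ileum alone and 1.54 without the stomach of the Iberian female, the stomach array farthest from its group. Without the Iberian male in all tissues it was 0.52 (adjusted p = 0.169).

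The 2 ACTG2 probes thus differed in their order of tissues, with a correlation of 0.42 over the 16 tissue means. In thyroid gland the brighter one stood at 8.99, 9.55, 9.38 and 9.80, above its levels in every gut array, which did not pass 8.32.

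Back fat and abdominal fat were also set against the other 12 tissues. The smooth-muscle class was higher again, with 4 of 4 probes and a median of 1.98. Altogether 16 members were higher, where 22.6% of all probes were, and 8 lower, where 31.1% were, at a median of -0.06 over all probes. ACTA2 lay between 10.47 and 12.04 in fats, against 6.03 to 12.26 in the other tissues, and differed by 2.32 ± 0.21 (limma adjusted p = 7.1e-14). Its abdominal fat levels were 11.97, 11.45, 10.48 and 12.04. The ACTG2 probes were higher by 1.95 and 2.01, and MYL9 by 0.73. TPM2 (1.31), TPM1 (0.82), MYH9 (0.78) and TPM4 (0.68) were higher as well. Of the smooth-muscle partners, again with the 3 ACTN1 probes, 12 of 20 probes were higher and 0 lower, with CALD1, caldesmon, at 2.36 and TAGLN at 1.76. Pericyte markers, from the cells that wrap small vessels, were higher in 5 of 6 probes, endothelial markers in 8 of 12 and fibroblast markers in 5 of 6, with medians of 0.83, 0.67 and 2.03. The part of these cells in the differences was not tested.

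The brightest probes of the cytoplasmic actins went down, with ACTG1 at -0.39 and ACTB at -0.33. The second ACTG1 probe averaged 8.21 in fats and 7.70 in the rest, and the second ACTB probe 8.25 and 8.20. ACTC1 (-1.33) and TNNI3 (-1.05) were lower as well. ACTC1 averaged 2.88 in fats, against a median of 3.62 in the rest, among which thyroid gland averaged 7.90 and pineal gland 7.35. MYL1 was called higher by 0.69 ± 0.17 (limma adjusted p = 0.0004), from levels of 4.70, 2.94, 6.17 and 3.37 in back fat. The Iberian female and the Large White male were high. MYH2 ran along at 4.21, 2.76, 5.26 and 2.76 and TNNC2 at 4.90, 3.81, 6.05 and 3.67. The skeletal muscle marker list moved with them, at 3.77, 3.25, 4.22 and 3.29. Without the back fat of the Iberian female MYL1 differed by 0.37 (adjusted p = 0.0143).

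Blood, drawn from the femoral vein, was set against the other 13 tissues. Here 34 members were higher, where 43.9% of all probes were, and 9 lower, where 35.6% were, at a median of 0.11 over all probes. The non-muscle class had 16 of 18 probes higher, 1 lower and a median of 1.05, and MYL4 was higher by 1.24. In the smooth-muscle class 1 probe was higher and 3 lower, at a median of -1.38.

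Among non-muscle members the second TPM4 probe had the largest difference, at 2.32 ± 0.15 (limma adjusted p = 1.1e-19), and the brighter one followed at 1.39. The second ACTB probe was higher by 1.67 and the first by 0.36. ACTG1 was higher by 0.20 in its brightest probe, a call that was lost when any of 3 animals was left out, and lower, at -0.75, in its second. MYH10, the heavy chain of non-muscle myosin IIB, was higher by 1.21 in its brighter probe, MYH9 by 1.18 and ACTN1 by 1.02. Both MYH10 probes were dim, the brighter at a mean of 4.24 in blood and 3.03 in the rest, the second at 3.11 and 2.89. Platelet markers, measured outside the members, averaged 8.45 to 8.83 in blood, and all 4 of their probes were higher, as were all 4 leukocyte probes.

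MYL9 and ACTA2 parted in blood. MYL9 had levels of 9.22, 9.48, 9.11 and 9.06, which is high among the tissues, with a difference of 1.66 ± 0.21. ACTA2 had levels of 7.03, 7.82, 6.69 and 6.03 and differed by -2.51 ± 0.29 (limma adjusted p = 3.7e-11). The ACTG2 probes were lower, at -1.32 and -1.43, the second without passing when the Large White male or the Iberian female was left out (adjusted p = 0.0568 and 0.0538). In the shared class 7 of 13 probes were higher in blood and 3 lower, at a median of 0.49. The second TPM1 probe (-1.84) and the brightest TPM2 probe (-1.26) were lower. The third TPM1 probe averaged 6.33 in blood and 5.37 in the rest. The third TPM3 probe averaged 5.49 and 3.81, with no overlap.

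Of the slow and cardiac genes 5 were higher in blood and 2 lower. TNNI1 had levels of 8.01, 7.88, 8.26 and 8.65, against 4.23 to 6.77 in the other 13 tissues. The blood arrays stood clear of the rest, though far below the muscles, and the difference was 3.44 ± 0.11 (limma adjusted p = 3.4e-33). MYL3 was higher by 1.65 ± 0.10, also with no overlap, and MYL2 by 1.16. TNNI2, a fast gene, was higher by 1.66 and TNNT3 by 1.03. The skeletal muscle markers had 5 of 9 probes higher at a median of 0.35. The 3′ to 5′ distance of the actin control was greatest in blood, at 2.98 to 3.45, while that of the GAPDH control averaged 0.70 in blood, the lowest of the tissues outside muscle. The part of RNA quality was not tested.

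The brain samples (pineal gland, olfactory bulb and hypothalamus) and both parts of the hypophysis were set as 1 group against the other 9 tissues outside muscle. In this group 31 members were lower, where 46.9% of all probes were, and 9 higher, where 28.9% were, at a median of -0.11 over all probes. All 4 smooth-muscle probes were lower with a median of -1.77. ACTG2 was at -1.72 and -2.77, ACTA2 at -1.81 and MYL9 at -1.69. MYL9 lay between 5.92 and 7.16 in the 20 arrays of the group and between 7.08 and 10.47 in the 36 others, which nearly separated them. All 8 smooth muscle marker probes were lower as well.

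The non-muscle class had 12 of 18 probes lower and 3 higher. MYH9 fell by 1.38 (SE 0.06, limma adjusted p = 8.3e-26), ACTN1 by 0.98 in its brightest probe and TPM4 by 0.76. The bright probes of the cytoplasmic actins went the other way, with ACTG1 higher by 0.25 and ACTB by 0.21. The second ACTB probe was lower, with a mean of 7.98 in the group and 8.34 in the rest. MYH10 did not pass in either probe. Both were dim, at means of 3.06 and 2.84 in the group and of 3.14 and 2.95 in the rest. The median over all values was 5.46. The brightest probe of TPM2 fell by 1.94 and that of TPM1 by 1.25. In the shared class 11 of 13 probes were lower and 2 higher. The fourth TPM2 probe went up, with a mean of 3.74 in the group and 3.36 in the rest.

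Among the slow genes MYH7 was higher by 1.31 ± 0.08 (limma adjusted p = 1.7e-21), with levels of 6.56, 6.99, 7.33 and 7.06 in neurohypophysis. These were the highest levels of MYH7 outside the muscles. TNNT1 was higher by 0.57. ACTC1 was higher by 0.97 and TNNC2 by 0.66 (limma adjusted p = 0.028), and the highest arrays of both in this group were those of pineal gland.

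In pineal gland TNNC2 had levels of 3.53, 12.70, 9.98 and 9.39. The Large White female approached the lowest muscle array, at 13.19, and the Large White male had a level like that of other tissues. ACTC1 ran the same way in the same pigs, at 3.67, 9.73, 7.78 and 8.22, and TNNT2 at 2.41, 4.72, 4.72 and 4.63. The fourth TPM2 probe had levels of 3.43, 5.38, 5.51 and 6.28. The pineal gland array of the Large White male lay nearest to the hypothalamus array of the same pig, at a distance (1 minus the squared correlation over all probes) of 0.0348, against a mean of 0.132 to its own tissue. Without it TNNC2 was higher by 1.02 in the brain group (adjusted p = 5.65e-09) and ACTC1 by 1.21, whereas without the Large White female in all tissues TNNC2 differed by 0.32 (adjusted p = 0.325). It did not pass without the Iberian female (adjusted p = 0.0884) or the Iberian male (adjusted p = 0.135) either. The skeletal muscle marker list was at 3.25, 3.83, 3.70 and 3.52 in pineal gland, against 11.30 to 12.06 in the muscles.

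ACTC1 also stood high in thyroid gland, at 7.71, 8.09, 7.86 and 7.92, with little spread between pigs. In the remaining tissues outside muscle, thyroid and pineal gland excepted, no tissue mean of ACTC1 exceeded 4.54. The olfactory bulb held 2 lesser rises, TNNI1 at 6.77, 6.35, 5.67 and 5.71 and the second ACTN2 probe at 5.82, 6.02, 6.21 and 6.04.

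**Figure D4:**
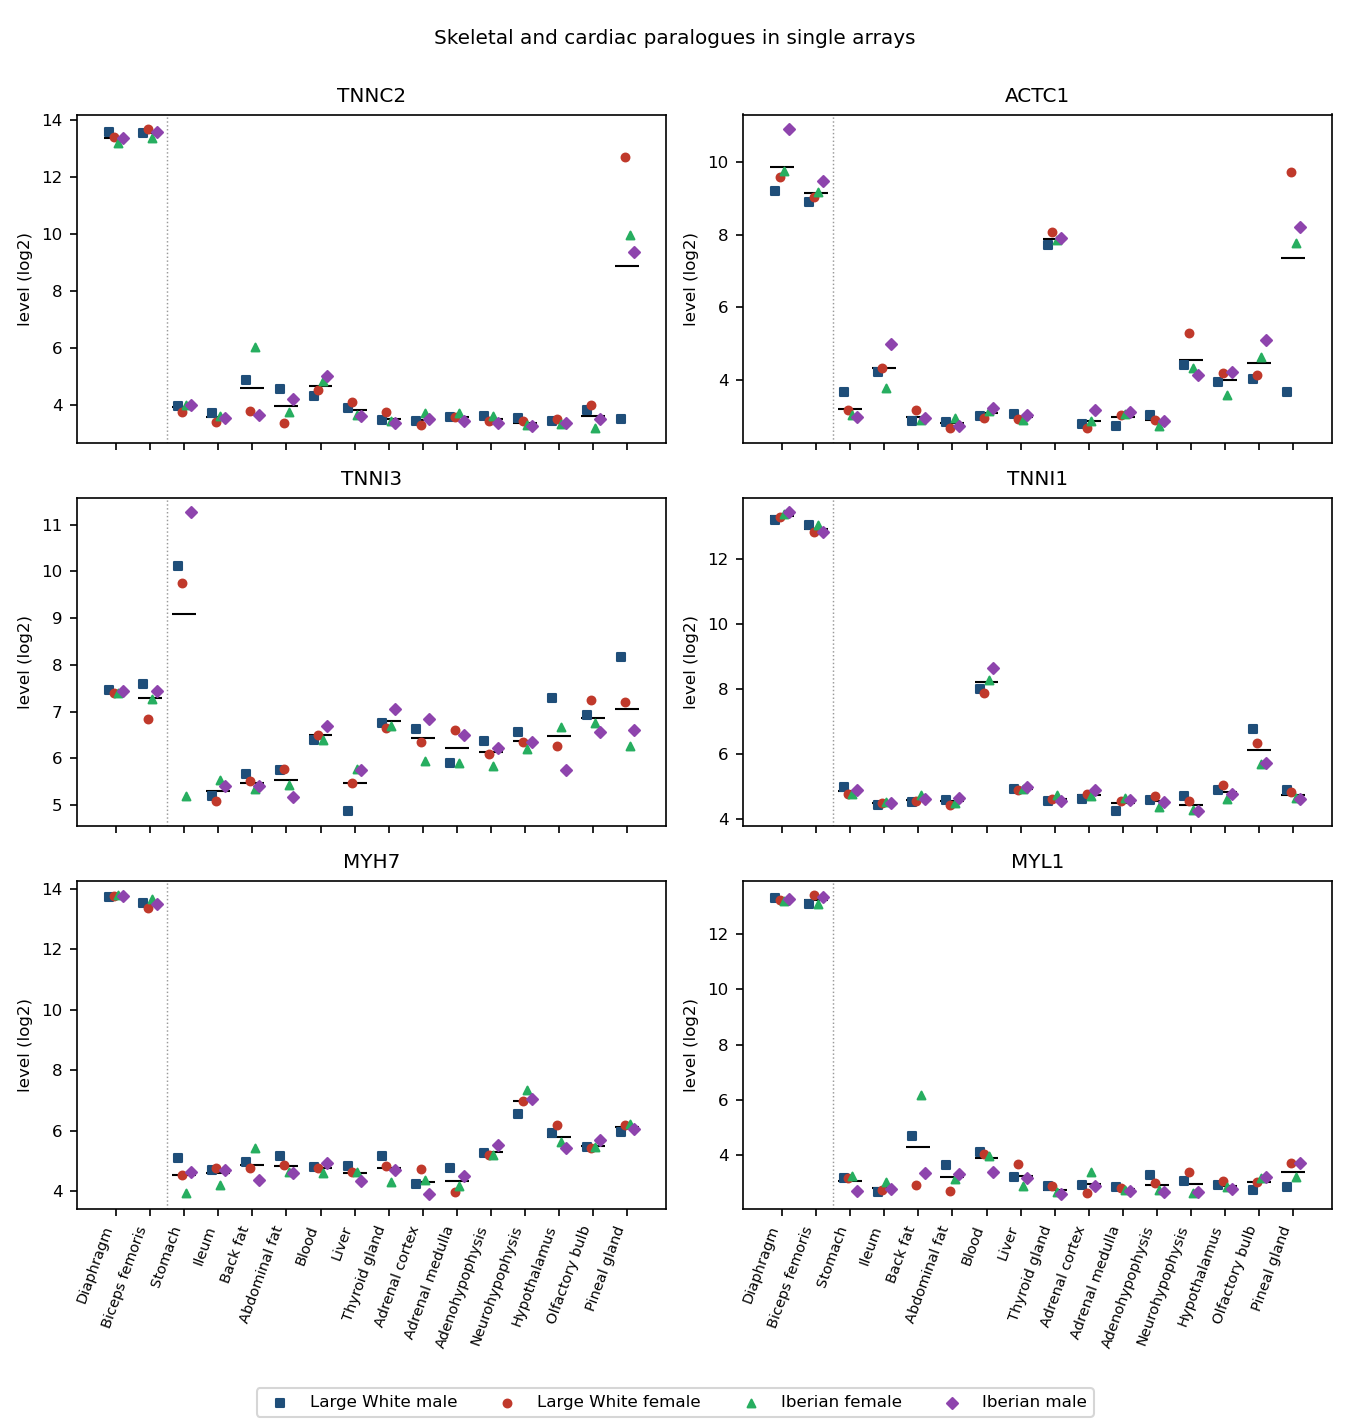
Log2 level of 6 skeletal and cardiac members in each of the 64 arrays, by tissue, with the muscles at left; symbols are the 4 pigs and horizontal lines tissue means. TNNC2 was at 9.39 to 12.70 in pineal gland of 3 pigs and at 3.53 in the Large White male, TNNI3 was high in stomach of 3 pigs, and MYL1 reached 6.17 in back fat in the Iberian female.

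Breed and sex were compared over the muscle means of the 4 animals, 2 against 2, which cannot give an exact permutation p below 0.333. For Large White against Iberian muscles 0 members passed, where 0.00% of all probes did. In male against female muscles 0 members passed, where 0.00836% of all probes were higher and 0.00418% lower. The contrast of diaphragm and Biceps femoris gave 0 members that differed between breeds, where 0.00% of all probes did. At an unadjusted p under 0.05 there were 0 members in each of these limma fits, against 1125, 294 and 633 of all probes. The widest breed differences were those of ACTC1 (-0.65 ± 0.30) and a TPM4 probe (0.58 ± 0.27), both with an adjusted p of 0.919 in limma. MYH2 in diaphragm was at 8.04 and 10.87 in the Large White pigs and at 8.52 and 10.92 in the Iberian pigs, so that its spread lay within each breed.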

How the data were processed

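RNA of 16 tissues from 4 pigs was measured on Affymetrix porcine arrays. The authors generated signals with GCOS and normalized them together by RMA. No version of GCOS or of the RMA program was found in the sources read. The deposited log2 values of the authors, for 24123 probe sets by 64 arrays, were used as given, with 188 control probe sets left out. Symbols came from the platform annotation, and all 51 members were found in the RefSeq gene table with 0 symbols changed. RMA ties arrays to 1 distribution, so that a tissue with very many bright genes can shift the others.

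Comparisons between tissues used limma (lmFit, contrasts.fit, eBayes) on tissue, breed and sex over 64 arrays, with Benjamini-Hochberg adjustment over 23935 probes and a threshold of 0.05. Breed and sex were tested on 4 animal values. The scripts were tested on simulated data. The 4 animals gave all tissues, which pairs the arrays: deviations from tissue means had a mean correlation of 0.189 within an animal and -0.0629 between animals. The number of arrays limits the precision, and since arrays of 1 pig are not independent, p-values over arrays may be too small.

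The module and its rule, which uses gene symbols alone, and the lists were proposed with earlier results of these data known. Of several probes of a gene the brightest by mean level was given first. In each comparison the text names up to 4 members of a class with the largest differences among those that passed and up to 2 that did not pass. In diaphragm against Biceps femoris all myosin and troponin genes could be named, and of partner lists the 3 with the largest differences. Members named beyond this rule were chosen after their values were seen, among them ACTC1 in diaphragm against Biceps femoris, cytoplasmic actins and further probes of a gene, TNNI3 in stomach, the pineal gland and back fat values and the third ACTG1 probe. The alternatives were quantile normalization, a further natural logarithm of the log2 values, a filter on dim probes, other covariates, fewer arrays and leaving out animals or arrays.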

Additional observations from a re-analysis of the deposited data

Results flagged for a closer look

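In each of 127 groups of 4 arrays, the highest or lowest array of a member was compared with the rest by Dixon's ratio. The groups were all members in diaphragm and Biceps femoris, and elsewhere only those whose single arrays are given above. In 5 groups (3.94%) it passed the critical value, where chance gives about 5% of groups picked without regard to their values. Some groups outside the muscles were picked after their values were seen, so the 2 shares cannot be compared strictly. TNNT2 in pineal gland was at 2.41 in the Large White male, against 4.63 to 4.72 in the other pigs. MYL3 in diaphragm was at 12.37 in the Large White female, against 12.12 to 12.14. MYL6 in Biceps femoris was at 9.70 in the Large White female, against 9.95 to 9.98. The second ACTB probe in blood was at 10.27 in the Iberian male, against 9.54 to 9.66. The third ACTN1 probe in diaphragm was at 3.80 in the Iberian male, against 4.04 to 4.07. The TNNT2 value came from the array that also held the low TNNC2 and ACTC1 values in pineal gland.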

How the results depend on the processing

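Of 37 members followed in the muscles against other tissues, 35 kept their direction and side of the threshold in every alternative, against 6 of 18 in diaphragm against Biceps femoris. The corresponding numbers were 16 of 21 for stomach and ileum, 16 of 21 for fats, 25 of 33 for blood and 25 of 30 for the brain group. In diaphragm against Biceps femoris, the animal as a replicate block gave 5 members higher and 7 lower, the 4 paired differences of the animals gave 0 and 0, and the 8 muscle arrays alone gave 0 and 0. The natural logarithm of the log2 values gave 2 higher there, and without both muscles of the Iberian female there were 2 higher and 2 lower. Leaving out 1 animal or array gave 1 to 6 higher and 2 to 9 lower. The filter on dim probes left 28 members, with 13 higher in muscles, 2 lower in diaphragm, 3 lower in stomach and ileum, 16 higher in blood, and 4 higher and 20 lower in the brain group, since fewer were tested. Stomach alone gave 3 lower. MYL1 in diaphragm against Biceps femoris turned to -0.043 under quantile normalization and to -0.012 without both muscles of the Iberian female, and lay between -0.036 and 0.083 with 1 animal or array left out. MYBPC1 in blood turned to -5.19e-05 under quantile normalization, and TNNI3 to -0.98 with ileum alone. The cause was not tested. Under quantile normalization the muscles had 33 members higher and 12 lower. In blood it left 29 members higher, and MYL1, TNNC1 and TNNT2 no longer passed there. A search of promoters for motifs was not run. Dim probes limit small differences, since no detection calls were used here.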
